A study of Rattus norvegicus with 4 samples.

Results

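Cells take up glucose through the facilitative carriers of the Slc2a (GLUT) family, and exchange lactate and pyruvate with their surroundings through the proton-coupled monocarboxylate carriers of the Slc16a (MCT) family. Between both steps, the bifunctional Pfkfb enzymes make and break down fructose 2,6-bisphosphate, a potent activator of phosphofructokinase, and so set the pace of glycolysis. Several of these genes, among them Slc2a1, Slc16a3, Pfkfb3 and Pfkfb4, are known targets of the hypoxia-inducible factor HIF-1 in other tissues. The carotid body (CB) is the small organ at the carotid bifurcation whose glomus cells sense the oxygen of arterial blood and also respond to its glucose. The genes described here were taken by symbol, with no threshold on their values. They are 3 glucose carriers (Slc2a1, Slc2a3 and Slc2a4), 3 lactate carriers (Slc16a1, Slc16a3 and Slc16a7) and the 4 Pfkfb genes, 10 in all of the 32883 genes counted.

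RNA-seq was performed on whole CBs of untreated Sprague Dawley rats, with 2 libraries from neonates (day 5) and 2 from adults (day 21, about the age of weaning). Each neonatal library pooled the CBs of 6 pups and each adult library those of 3 rats, by the design text deposited with the data. Females and males were both included, per the study, and were not separated, and every library holds all cell types of the organ. Levels are given as CPM, a gene's counts scaled to the size of its library, after TMM normalization. TMM scales each library by a factor that assumes most genes do not differ between libraries. All log2 fold changes are neonate over adult, so that a negative value means a lower level in neonates. With 2 libraries per age, p-values set the difference between ages against the spread between pools of the same age. The spread between single animals was not measured.

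Library totals lay between 36286178 and 39476111 counts. Th, the rate-limiting enzyme of catecholamine synthesis and a marker of glomus cells, had between 835 and 1403 CPM, and all 7 glomus cell markers listed were detected in every library. The neonatal libraries stood apart in other respects. The mitochondrially encoded genes took 18.7% and 15.6% of their counts, against 9.06% and 9.08% in adults, and Pth, the parathyroid hormone gene, had 1769 and 208 CPM in neonate replicates 1 and 2 and 0 counts in both adult libraries. The counts of replicate libraries differed by more than sampling noise at both ages.

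Of the 10 genes, 9 passed the filter on low values (1 CPM or more in 2 or more libraries), and the remaining gene, Slc2a3, had no counts. At a threshold of 0.05 on the adjusted p, Slc2a1, Slc2a4, Slc16a1, Pfkfb2 and Pfkfb3 were lower in neonates, Slc16a7 was higher, and Slc16a3, Pfkfb1 and Pfkfb4 did not pass. Among all 13843 genes tested by edgeR's quasi-likelihood test, 31.1% were lower and 31.2% higher in neonates by the same rule. A fold change of 2 was reached by 2 of the genes, Slc16a1 and Pfkfb3, both lower in neonates, while 13.2% of all genes were lower and 7.68% higher by that rule. Both neonatal libraries lay below both adult libraries for 5 genes and above them for 2, which held for 41.7% and 41.3% of all genes tested. The median log2 fold change of the 9 genes was -0.58, and -0.0029 over all genes tested. When any single library was left out, including neonate replicate 1 with the most Pth, the log2 fold changes of the 9 genes kept their signs. Neonate replicate 2 still held 208 CPM of Pth, so the Pth difference between the ages remained. Its part in these values was not tested.

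**Figure D1:**
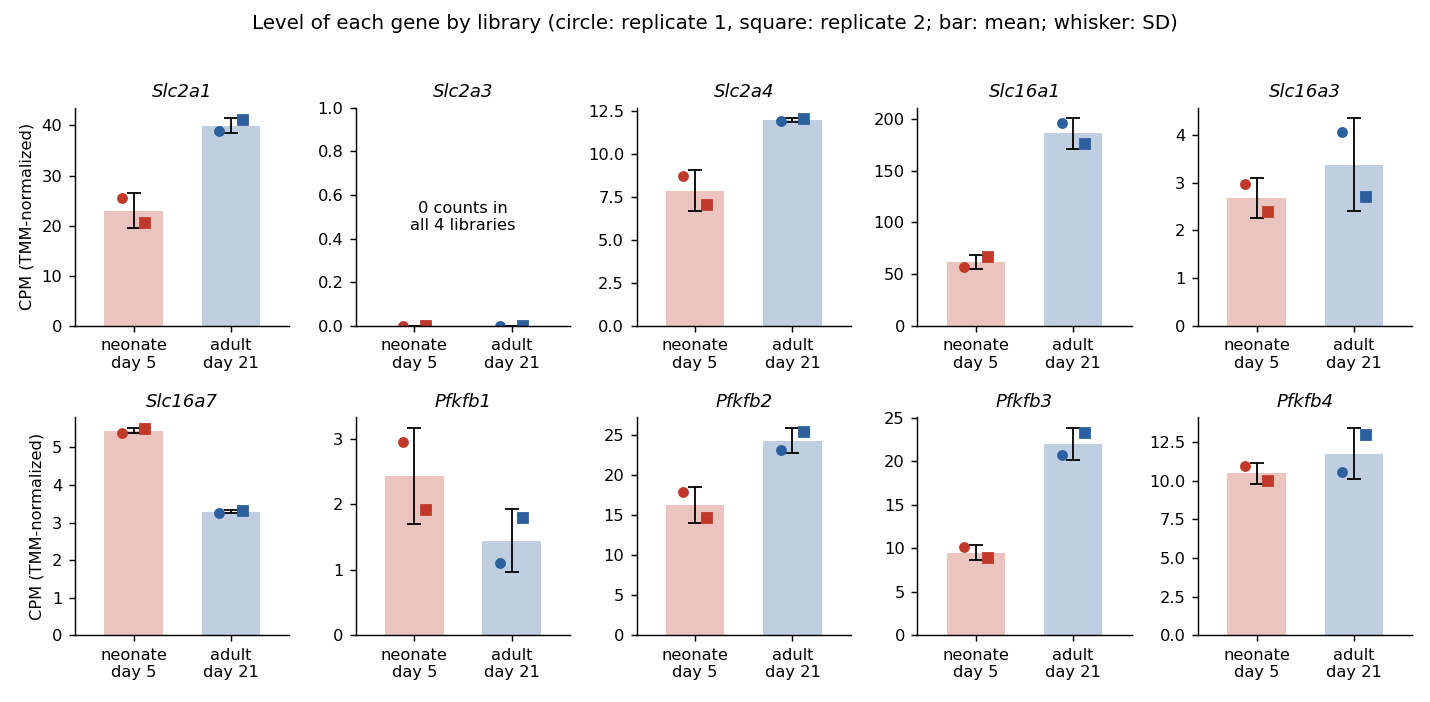
TMM-normalized CPM (vertical axis, from 0, a separate scale for each gene) of the 10 genes in neonatal (red) and adult (blue) CBs; bars are means, whiskers SD over 2 libraries, circles replicate 1 and squares replicate 2. Both adult libraries lie above both neonatal ones for Slc2a1, Slc2a4, Slc16a1, Pfkfb2 and Pfkfb3, below them for Slc16a7 and Pfkfb1, and Slc2a3 is at 0 throughout.

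The scaling matters for these values. When libraries were scaled by their totals alone, the median over all genes tested moved to -0.25 on the log2 scale, and the 4325 genes higher and 4300 lower became 2584 higher and 6000 lower. The 5 genes lower in neonates passed under both scalings, with Slc2a1 past a fold change of 2 as well (-1.05), whereas Slc16a7 no longer passed (0.48, adjusted p = 0.11 in edgeR). No sign of the 9 log2 fold changes turned.

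**Figure D2:**
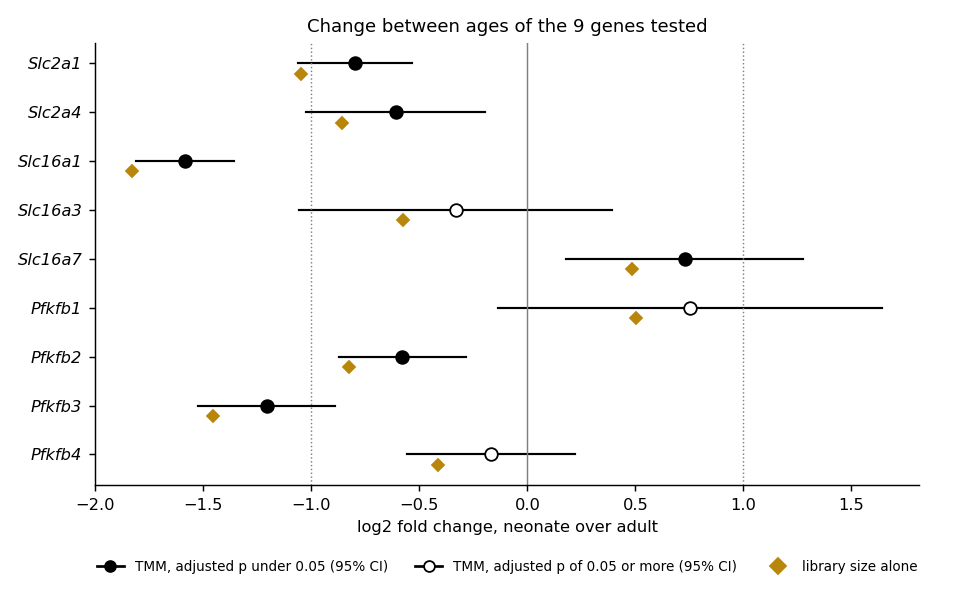
Log2 fold change, neonate over adult (horizontal axis), of the 9 genes tested; circles with 95% confidence intervals are edgeR's estimates after TMM, filled where the adjusted p is under 0.05, and diamonds are the estimates by library size alone. Dotted lines mark a fold change of 2, which Slc16a1 (-1.59) and Pfkfb3 (-1.21) exceed after TMM, and every diamond lies to the left of its circle.

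For 8 of the 10 genes, RefSeq on the assembly GRCr8 gives the 300 bases from 250 before to 50 after the annotated start; Slc2a3 and Slc2a4 have no entry there. These windows were searched on both strands for ACGTG and GCGTG, the core letters that HIF-1 binds. They are shown for Slc2a1, Slc16a1 and Pfkfb3, which were lower in neonates and hold the letters, and for Slc16a7, which was higher in neonates. Capitals mark each match on either strand, so that CACGT and CACGC are matches on the opposite strand. The windows are Slc2a1 at chr5:138002272-138002571 (plus strand), Slc16a1 at chr2:194812410-194812709 (plus strand), Pfkfb3 at chr17:71944683-71944982 (plus strand) and Slc16a7 at chr7:63040349-63040648 (minus strand).
Slc2a1: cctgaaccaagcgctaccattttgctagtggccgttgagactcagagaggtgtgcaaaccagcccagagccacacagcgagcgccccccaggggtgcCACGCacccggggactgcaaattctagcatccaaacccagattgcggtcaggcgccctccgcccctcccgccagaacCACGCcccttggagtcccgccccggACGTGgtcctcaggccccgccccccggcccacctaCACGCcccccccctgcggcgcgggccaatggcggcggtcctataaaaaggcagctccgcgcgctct
Slc16a1: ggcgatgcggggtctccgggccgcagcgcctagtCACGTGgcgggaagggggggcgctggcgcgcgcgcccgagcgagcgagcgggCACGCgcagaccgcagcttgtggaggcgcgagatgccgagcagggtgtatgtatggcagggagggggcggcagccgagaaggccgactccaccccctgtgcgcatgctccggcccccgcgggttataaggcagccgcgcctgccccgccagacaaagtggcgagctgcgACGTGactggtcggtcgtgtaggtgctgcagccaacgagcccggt
Pfkfb3: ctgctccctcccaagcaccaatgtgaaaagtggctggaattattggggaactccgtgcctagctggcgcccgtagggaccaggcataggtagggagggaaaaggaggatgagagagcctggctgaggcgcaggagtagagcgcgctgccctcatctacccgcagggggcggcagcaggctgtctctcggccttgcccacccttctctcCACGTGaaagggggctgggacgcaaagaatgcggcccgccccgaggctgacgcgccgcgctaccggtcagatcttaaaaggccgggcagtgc
Slc16a7: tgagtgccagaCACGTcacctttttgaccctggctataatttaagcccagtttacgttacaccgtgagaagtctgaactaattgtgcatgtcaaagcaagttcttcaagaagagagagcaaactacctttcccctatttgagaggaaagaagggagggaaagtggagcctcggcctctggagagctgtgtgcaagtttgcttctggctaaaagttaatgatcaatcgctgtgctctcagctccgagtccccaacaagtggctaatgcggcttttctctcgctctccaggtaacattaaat

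Slc2a1 held 4 matches, of which ACGTG began 51 bases before the start, and Slc16a1 also held 4. In Slc16a1 and in Pfkfb3, a pair of matches overlap as the palindrome CACGTG, the E-box, 216 and 42 bases before the start. Slc16a7 held 1 match near the far end of the window, 239 bases before the start. The windows of Slc16a3, Pfkfb1, Pfkfb2 and Pfkfb4 held none, so 4 of 8 windows had a match. Of all 33469 promoter windows in the table, 41.6% hold ACGTG or GCGTG, and so do 61.2% of the 10284 windows whose genes were tested here. CACGTG is in 6.42% of all windows. The matches describe the letters in these windows only, and no binding was measured in the CB.

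Slc2a1 (ENSRNOG00000007284) encodes GLUT1, the carrier of basal glucose uptake in most tissues and of the blood-tissue barriers. It had 25.4 and 20.6 CPM in the neonatal libraries and 38.9 and 41.0 CPM in the adult libraries. The ages did not overlap, and the adult mean (40.0 ± 1.46 CPM, SD, n = 2) was 1.74-fold the neonatal mean (23.0 ± 3.43 CPM, n = 2). Its log2 fold change was -0.80 (standard error 0.12, adjusted p = 0.00039 in edgeR), and it passed under all 14 alternatives tried. Endothelial markers were split, with 2 of 6 tested higher and 2 lower in neonates and summed levels from 989 to 1031 CPM in neonates and from 904 to 944 CPM in adults. Erythroid markers went the other way, 5 of 5 tested being higher in neonates, and their summed level was 12914 and 7336 CPM in neonates and 2810 and 2453 CPM in adults. The part of either cell type in the Slc2a1 values was not tested. In these bulk samples, fewer cells of a type and less RNA per cell cannot be told apart.

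Slc2a4 (ENSRNOG00000017226) encodes GLUT4, the insulin-responsive carrier best known from muscle and fat. Its level was 8.68 and 7.0 CPM in neonates and 11.9 and 12.0 CPM in adults. Neonates were again below adults without overlap, by -0.61 on the log2 scale (standard error 0.18), with an adjusted p of 0.017 in edgeR. This call was lost when single libraries were left out. Without neonate replicate 2 the adjusted p was 0.057 (log2 fold change -0.45), and without adult replicate 1 or 2 it was 0.074 and 0.083, by edgeR in each case. Markers of both tissues in which Slc2a4 is prominent were detected. Of 5 adipocyte markers tested, 3 were lower in neonates (Adipoq at a log2 fold change of -2.51, Plin1 at -2.30 and Cidec at -1.95). Cidec, at 0.899 and 0.833 CPM in neonates, passed the filter on low values only through the adults and so had to differ. Fabp4, which endothelium also expresses, was higher in neonates. The adipocyte list summed to 140 and 186 CPM in neonates and to 119 and 165 CPM in adults, most of it Fabp4, and Lep had no counts in neonates. Of 5 skeletal muscle markers tested only Myh3, the embryonic myosin heavy chain, passed, lower in neonates at -1.76. The list summed to 26.3 and 31.5 CPM in neonates and 49.3 and 54.0 CPM in adults, with Myh8 at 0 counts throughout. Most of the adult excess in this sum was Myh3, at 11.1 and 8.02 CPM in neonates and 33.2 and 31.5 CPM in adults. Acta1 and Mylpf leaned the other way, at 0.67 and 0.54, and Myh4 and Tnnt3 leaned lower, at -0.60 and -0.27. The part of either tissue in the Slc2a4 difference was not tested.

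Slc2a3 (ENSRNOG00000049298) encodes GLUT3, the high-affinity carrier typical of neurons. It was listed at 0 counts in all 4 libraries, which allows a level of up to 0.0734 to 0.0843 CPM per library, taking 3 counts as the limit for a count of 0. This limit covers counting error only. Of the 16935 entries whose symbol RefSeq gives as protein-coding, 9.22% were at 0 in every library. The value is that of the annotated entry, and whether reads of the transcript were counted elsewhere was not tested.

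Slc16a1 (ENSRNOG00000019996) encodes MCT1, the most widespread of the lactate carriers, and had the largest fold change of the 9 genes tested. Neonates had 57.1 and 66.9 CPM and adults 197 and 176 CPM. The gap between the ages was many times the spread within them, with means of 62.0 ± 6.95 and 186 ± 14.8 CPM (SD, n = 2 each). The adult level was 3.00-fold the neonatal one, or -1.59 ± 0.10 (standard error) on the log2 scale, with an adjusted p of 5.5e-06 in edgeR. Over the alternatives this value stayed between -1.83 and -1.47. Among all genes tested, those whose profile over the 4 libraries lay near that of Slc16a1, by Euclidean distance of centred log2 CPM, included Klf2 (distance 0.069), a transcription factor of endothelium, and Zfp551 (0.069), with 6 genes within 0.1. Klf2 had 4.52 and 5.11 CPM in neonates and 14.96 and 13.1 CPM in adults. With 4 libraries many genes can share such a profile. Of the 7 glomus markers 3 were higher and 3 lower in neonates. These counts rested on single libraries, being 1 and 2 without neonate replicate 1, 3 and 1 without neonate replicate 2 or adult replicate 1, and 1 and 3 without adult replicate 2. The sustentacular and Schwann markers summed to 997 and 2089 CPM in neonates and to 1645 and 1755 CPM in adults.

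Slc16a7 (ENSRNOG00000007839) encodes MCT2, a high-affinity carrier associated with neurons and with lactate uptake, and it went the opposite way. Neonates had 5.39 and 5.50 CPM and adults 3.26 and 3.32 CPM. Replicates were close to each other at this low level, and the log2 fold change was 0.73 (standard error 0.24, adjusted p = 0.027 in edgeR), or 1.66-fold. The call was lost with either adult library left out (adjusted p = 0.15 and 0.14 in edgeR) and by library size alone, as given above. Of 5 sympathetic neuron markers tested, 4 (Npy, Slc6a2, Prph and Nefl) were higher in neonates. Isl1 leaned lower (-0.18, adjusted p = 0.13 in edgeR), and passed as lower by library size alone (-0.43, adjusted p = 0.0084 in edgeR). The list summed to 1234 and 1031 CPM in neonates and to 696 and 572 CPM in adults. The part of these neurons in the Slc16a7 difference was not tested.

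Slc16a3 (ENSRNOG00000036677), which encodes MCT4, the lactate exporter of strongly glycolytic cells, did not differ beyond the spread. It had 2.98 and 2.39 CPM in neonates and 4.06 and 2.69 CPM in adults, so that the ages overlapped. Its log2 fold change of -0.33 (adjusted p = 0.39 in edgeR) had a 95% confidence interval from -1.06 to 0.39, which leaves room for a change of 2-fold toward adults. It had between 86 and 166 counts per library.

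The Pfkfb genes encode isoforms of 6-phosphofructo-2-kinase/fructose-2,6-bisphosphatase. Pfkfb3 (ENSRNOG00000018911), the inducible isoform with the strongest kinase activity, had 10.1 and 8.88 CPM in neonates and 20.7 and 23.3 CPM in adults. Adults thus had 2.31-fold the neonatal level, or -1.21 ± 0.14 (standard error) on the log2 scale with an adjusted p of 0.00010 in edgeR, and the call held under all 14 alternatives. Markers of cycling cells, in which this isoform is often high, went the other way, 4 of 4 (Mki67, Top2a, Cdk1 and Ccnb1) being higher in neonates, with a summed level of 474 and 398 CPM against 98.3 and 99.1 CPM in adults. Their part in the Pfkfb3 values was not tested.

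Pfkfb2 (ENSRNOG00000004162), the isoform of the heart that several kinases activate by phosphorylation, had 17.9 and 14.7 CPM in neonates and 23.2 and 25.5 CPM in adults. The ages did not overlap, and the log2 fold change of -0.58 (standard error 0.13) had an adjusted p of 0.0041 in edgeR and passed under all alternatives. Pfkfb4 (ENSRNOG00000020656), a further inducible isoform, had 10.96 and 9.97 CPM in neonates and 10.6 and 12.9 CPM in adults. Here the ages overlapped, and the interval of the log2 fold change, from -0.56 to 0.22 around -0.17 (adjusted p = 0.42 in edgeR), lies short of a 2-fold change in either direction. Pfkfb1 (ENSRNOG00000000165), the isoform of liver and muscle, was at a low level with 2.95 and 1.92 CPM in neonates and 1.10 and 1.78 CPM in adults. Neonates were above adults by a narrow margin, and the log2 fold change of 0.75 (standard error 0.39) did not pass (adjusted p = 0.12 in edgeR). It passed only without neonate replicate 2 (1.05, adjusted p = 0.031 in edgeR), and was 0.42 without neonate replicate 1 or without adult replicate 1.

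A ratio of counts of 2 genes within a library does not depend on how libraries are scaled, and gene length cancels when the ratio is compared between ages. Relative to Slc16a1, Slc16a7 counts were 0.0945 and 0.0822 in neonates and 0.0166 and 0.0189 in adults, 4.98-fold higher in neonates. For Slc16a3 over Slc16a1 the ratio was 0.0522 and 0.0357 in neonates and 0.0207 and 0.0153 in adults, 2.42-fold higher in neonates. Both ratios were lower in each adult library than in either neonatal one, and so were the ratios of the other Pfkfb genes to Pfkfb3. The ratio of Pfkfb4 to Pfkfb3 was 1.08 and 1.12 in neonates and 0.512 and 0.555 in adults, and that of Pfkfb2 to Pfkfb3 was 1.76 and 1.65 against 1.12 and 1.09. Pfkfb1 over Pfkfb3 was 3.92-fold higher in neonates. The glucose carriers had the smallest difference of the 6 ratios, that of Slc2a4 to Slc2a1 being 0.341 and 0.340 in neonates and 0.305 and 0.294 in adults, 1.14-fold higher in neonates. For all 6 ratios the ages did not overlap. Each gave p = 0.333 in a two-sided exact permutation test, before and after Benjamini-Hochberg adjustment over the 6. That is the smallest p that 2 libraries against 2 allow. All ratios except Slc2a4 over Slc2a1 have Slc16a1 or Pfkfb3 as denominator, the 2 genes with the largest log2 fold changes (-1.59 and -1.21). They are therefore not independent of those changes or of each other. Levels of single genes did not overlap for 41.7% (neonates below) and 41.3% (neonates above) of all genes tested. No such share was computed over pairs of genes.

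**Figure D3:**
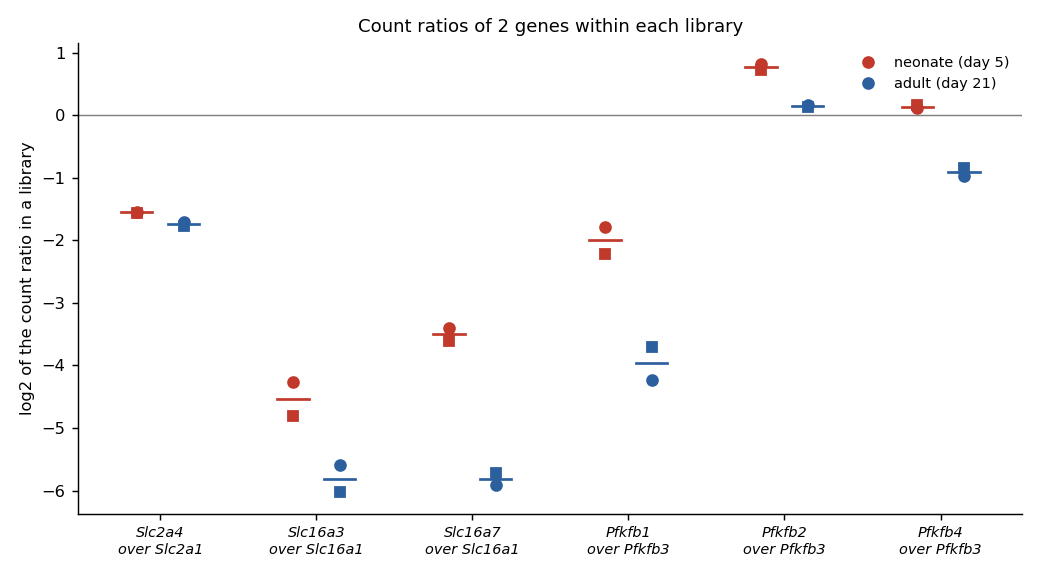
Log2 of the ratio of counts of 2 genes within a library (vertical axis) for 6 pairs, in neonatal (red) and adult (blue) CBs; circles are replicate 1, squares replicate 2 and lines the means. All ratios are lower in adults without overlap, most for Slc16a7 over Slc16a1 (a log2 difference of 2.32) and least for Slc2a4 over Slc2a1 (0.19). All pairs except the latter have Slc16a1 or Pfkfb3, the genes with the largest fold changes, as denominator.

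Other carriers of both families were examined from lists made by function. Of 7 other glucose carriers tested, 4 passed as lower and 1 as higher in neonates. Slc2a13 is among the 4 (-0.26, adjusted p = 0.044 in edgeR), but not in DESeq2 (adjusted p = 0.061 in DESeq2). Nor did it pass with TMM without mitochondrially encoded and ribosomal protein genes (adjusted p = 0.054 in edgeR). It also did not pass without neonate replicate 1 (-0.22), neonate replicate 2 (-0.26) or adult replicate 1 (-0.20). The median over the 7 was -0.48 on the log2 scale, but it depended on the filter, at -0.072 over 10 genes with no filter and at 0.061 over 4 genes with a mean of at least 5 CPM. Slc2a5, the fructose carrier, was at -2.19 (standard error 0.42), Slc2a12 at -1.28 (0.25) and Slc2a9, the urate carrier, at -0.98 (0.26), with adjusted p of 0.0017, 0.0021 and 0.0095 in edgeR. Slc2a5, at 0.421 and 0.333 CPM in neonates and 1.76 and 1.71 CPM in adults, passed the filter only through the adults and so had to differ. Slc2a9 did not pass without adult replicate 2 (-0.83, adjusted p = 0.098 in edgeR). Slc2a8, an intracellular carrier, was higher in neonates at 0.45, but not by library size alone (0.21, adjusted p = 0.083 in edgeR). The sodium-coupled carriers Slc5a1 and Slc5a2 were too low to be tested, at no more than 0.194 CPM in any library.

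Of 8 other monocarboxylate carriers and partner proteins tested, 5 were lower in neonates, with a median of -0.71, and the log2 fold change was negative for all 8. Slc16a11 was at -3.06 (standard error 0.47) and Slc16a14 at -1.72 (0.38), with adjusted p of 0.00053 and 0.0038 in edgeR. Both were under 1 CPM in neonates and passed the filter only through the adults, so that they had to differ, and they are 2 of the 5. Leaving out adult replicate 1 or 2 brought the 5 down to 2 and 3, with 6 of the list's genes then tested and medians of -0.32 and -0.38. The median was -0.45 with no filter and -0.46 with a mean of at least 5 CPM. Bsg and Emb encode basigin and embigin, the chaperones that bring MCT proteins to the cell surface. Bsg was at 413 and 379 CPM in neonates and 443 and 428 CPM in adults. Its log2 fold change was -0.14 (adjusted p = 0.19 in edgeR), and it passed, lower in neonates, by library size alone (-0.38, adjusted p = 0.0045 in edgeR). Emb was lower in neonates at -0.42 (adjusted p = 0.013 in edgeR), but not without neonate replicate 2 or adult replicate 1 (adjusted p = 0.069 and 0.076 in edgeR).

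The glycolytic enzymes were split by direction. Of 19 tested, 4 were higher and 5 lower in neonates, with a median of 0.067, and by library size alone 2 were higher and 8 lower, with a median of -0.18. Eno3, the muscle enolase, was higher in neonates at 1.41 (standard error 0.12, adjusted p = 2.5e-05 in edgeR). On the lower side Pfkp, the platelet-type phosphofructokinase, was at -0.73 (standard error 0.12, adjusted p = 0.00069 in edgeR). Of 2 fructose bisphosphatases tested, Fbp1 was higher in neonates at 1.09 (adjusted p = 0.025 in edgeR). It did not pass by library size alone (0.84, adjusted p = 0.067 in edgeR) or in DESeq2 (1.09, adjusted p = 0.053 in DESeq2). Nor did it pass without adult replicate 1 or 2, where its log2 fold change was 1.17 and 0.96. It had between 37 and 84 counts per library. Tigar, which breaks down the product of the Pfkfb kinases, was at -0.047 (adjusted p = 0.78 in edgeR).

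Of 14 genes that control glucose uptake or the traffic of GLUT4, 7 were lower and 2 higher in neonates, with a median of -0.24. Irs1, an insulin receptor substrate, counts among the 7 at an adjusted p of 0.050 in edgeR. It did not pass with RLE factors, another way to scale the libraries (adjusted p = 0.054 in edgeR), or with no filter (adjusted p = 0.052 in edgeR). Nor did it pass with TMM without mitochondrially encoded and ribosomal protein genes (adjusted p = 0.053 in edgeR). The Irs1 call was also lost without neonate replicate 1 (-0.48) and with either adult library left out. The largest changes were those of Lnpep, an aminopeptidase of GLUT4 vesicles (-2.37, standard error 0.32), Sort1, the sorting receptor sortilin (-1.16, 0.091), and Insr, the insulin receptor (-1.09, 0.11), with adjusted p of 0.00025, 1.5e-05 and 5.3e-05 in edgeR. Lnpep has fractional estimated counts, so that some of its reads are shared with another entry, whereas all counts of the 10 genes described above are whole. Txnip, which lowers glucose uptake by promoting the internalization of GLUT1 and GLUT4, had 602 and 799 CPM in neonates and 1234 and 1268 CPM in adults, and is named for its role and after its values were seen.

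**Figure D4:**
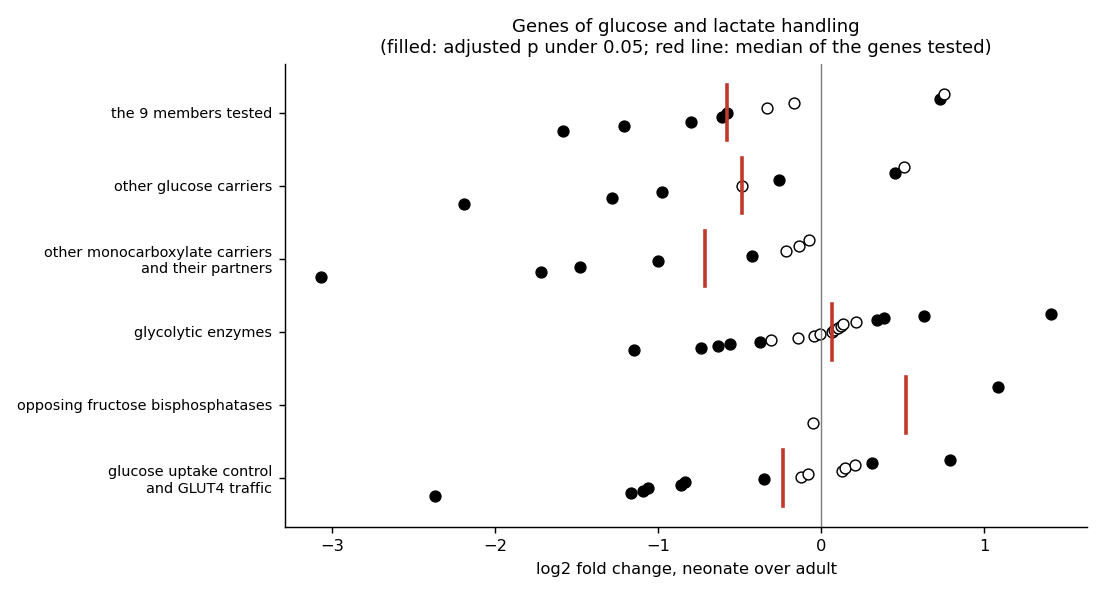
Log2 fold change, neonate over adult (horizontal axis), of each gene tested among the genes described here and 5 related lists (rows); points are genes, filled where the adjusted p is under 0.05, and red lines are medians. The medians lie at -0.58 for the 9 genes and, with the filter used, at -0.48 and -0.71 for the other carriers and 0.067 for the glycolytic enzymes. With a mean of at least 5 CPM that of the other glucose carriers is at 0.061.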

How the data were processed

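RNA of whole CBs from neonatal and adult rats, 2 libraries per age as labelled, was analysed. The authors deposited estimated counts per gene, not normalized, made with STAR and Salmon (version 1.5.2 in the submitters' notes) on Rnor 6.0. Where the deposited design text and the study's methods differ on the animals pooled, the former was used.

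Whole-number rounding preceded the tests, which used edgeR 4.0.16 under R 4.3.3. Entries whose symbol or synonym RefSeq (GRCr8) gives as other than protein-coding, 636 in number, were removed, and a gene needed 1 CPM or more in 2 or more libraries. The ages were compared by the quasi-likelihood test after TMM, with no covariate and with Benjamini-Hochberg adjustment over all 13843 genes. Standard errors are the log2 fold change divided by the square root of F. The procedure was tested on simulated data.

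Alternatives were DESeq2 1.42.0, limma-voom 3.58.1, RLE factors, library size alone, TMM without mitochondrially encoded and ribosomal protein genes, 2 other filters on low counts (none, or a mean of at least 5 CPM), all gene types, unrounded counts, a replicate block, and each library left out. Count ratios used the counts as rounded, with 0.5 added to each as an alternative.

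The genes, lists and tests were chosen with earlier results of these data known. The genes named are all 10 members, in each related list up to 3 with the largest change among those past the threshold, and the 3 genes nearest to the member with the largest change. Others are named for their role or their values, and some results that the rule would name are not reported here. Where a symbol has several entries, the one with most reads was used. Transcript lengths were not used here, so levels are not compared between genes.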

Additional observations from a re-analysis of the deposited data

How the results depend on the processing

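The 5 genes lower in neonates and the 1 higher were found by edgeR with RLE or restricted TMM factors, no filter, all gene types or unrounded counts, and by DESeq2 and limma-voom. By library size alone 0 were higher, with Slc16a7 at a log2 fold change of 0.48. With a mean of at least 5 CPM 0 were higher, since Slc16a3, Slc16a7 and Pfkfb1 were then not tested. With each library left out, the number higher ran from 0 to 2 and the number lower from 4 to 5. Slc2a4 ran from -0.76 to -0.45, Slc16a7 from 0.68 to 0.75 and Pfkfb1 from 0.42 to 1.11. A lone library is there assumed to vary like the others. Slc2a1, Slc16a1, Pfkfb2 and Pfkfb3 kept their call throughout, no value changed sign, and the cause of the changed calls was otherwise not tested.

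The replicate numbers do not mark shared animals, and deviations of same-numbered libraries correlated at 0.042 over genes. With a replicate block Slc16a1 was at -1.59 and no call on the 10 genes changed, while 4542 genes were higher and 4551 lower. Over all genes, 4325 were higher in neonates, against 2584 by library size alone. Past 2-fold, 1063 were higher and 1822 lower, against 704 higher and 2550 lower by library size alone and 654 higher and 1169 lower with a mean of at least 5 CPM. Slc16a3 and Pfkfb1, with 45 to 166 counts per library, had the largest standard errors of the 9 genes, 0.32 and 0.39.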

Other observations

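The remaining cell type markers are given as background to the carriers and enzymes. Of 6 macrophage markers tested, 4 (Csf1r, Mrc1, C1qa and Cd163) passed edgeR's test as lower in neonates and Aif1 as higher, and the list summed to 79.4 and 86.6 CPM in neonates and to 121 and 119 CPM in adults. Of 7 smooth muscle and pericyte markers, 4 were lower and 1, Pdgfrb, higher (0.31), while Acta2 was at -0.035. Rgs5, a pericyte marker, was at a log2 fold change of -1.80 (standard error 0.099). The list summed to 1219 and 1259 CPM against 1998 and 2111 CPM. Most of that gap was Rgs5, at 301 and 264 CPM in neonates and 1006 and 969 CPM in adults. Of 4 fibroblast markers tested, 3 were lower, Dcn at -1.40 (standard error 0.13), and the list summed to 6184 and 7509 CPM against 8265 and 8673 CPM. The glomus markers summed to 5294 and 3921 CPM in neonates and to 4528 and 3771 CPM in adults. Of these sums, Chga gave 1721 and 791 CPM in neonates and 784 and 659 CPM in adults. The log2 fold change of Chga was 0.80, and 0.14 without neonate replicate 1. Of 6 sustentacular and Schwann markers, 2 were higher and 1 lower in neonates. Fabp7, among those higher, passed the filter only through the neonates (0.0979 and 0.452 CPM in adults) and so had to differ. Both parathyroid markers tested, Pth and Gcm2, were higher in neonates. With 0 counts in both adult libraries, they passed the filter only through the neonates and so had to differ. The parathyroid list summed to 1792 and 211 CPM in neonates and to 0.0245 and 0.0503 CPM in adults. These lists were not weighed as causes of the differences above.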
